A study of Mus musculus with 2 samples.

Results

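The genes described here are 30 genes of cholesterol synthesis, uptake and efflux. They comprise 18 enzymes of the mevalonate and sterol pathway, 5 genes that control it, and 7 genes of sterol transport, uptake, esterification, oxysterol formation and efflux. They were taken by name from a count table of 54532 gene identifiers, by a rule that uses no measured value. Of the 30 genes, 29 reached 10 counts when both libraries were added, as did 14489 genes of the table. *Fdps* was the exception.

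RNA was sequenced from M1-like bone marrow derived macrophages (BMDMs) of male FRβ KO and WT mice on C57BL/6. In the FRβ KO mice the *Folr2* gene, which encodes folate receptor β, is disrupted by an inserted neomycin resistance gene, and the allele was brought onto C57BL/6 from SWV mice. The WT mice carry no inserted allele. The WT mice were bought from a vendor when young, and the FRβ KO mice were bred in the laboratory's own facility. The sources used here do not state the age of the FRβ KO donors or the number of backcross generations. Both cultures were grown for 7 days in RPMI 1640 medium with 10% FBS and 20 ng/mL M-CSF, and 20 ng/mL IFNγ was then added together with LPS at 1 ng/mL for 24 hours. The sample labels call the medium regular, while the methods name regular or folate deficient medium, and the FA_N in both sample titles has no explanation there. Because the RNA of 3 mice was pooled per genotype, each genotype is 1 library, no difference has a replicate check, and genotype, strain background, source of the mice, pool and culture cannot be told apart.

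The counts summed to 19742619 in the FRβ KO library and 18871271 in the WT library. *Folr2* had 2 counts in FRβ KO and 0 in WT, at or under the 3 counts that a count of 0 allows, so its counts cannot test which library is which. All 7 macrophage markers were detected, with a summed level of 16920 CPM (counts scaled to the TMM library size) in FRβ KO and 19485 CPM in WT. T cell, B cell, adipocyte and erythroid marker lists each summed to less than 1 CPM in both libraries. The dendritic cell markers summed to 10.6 CPM in FRβ KO and 11.8 CPM in WT. Most of this came from *Zbtb46* (109 counts in FRβ KO and 138 in WT) and *Xcr1* (94 in FRβ KO and 76 in WT). The fibroblast markers summed to 3.0014 CPM in FRβ KO and 3.6487 CPM in WT, mostly from *Col1a1* and *Col1a2*. The 5 neutrophil markers summed to 20.96 CPM in FRβ KO and 35.8 CPM in WT, mostly from *S100a8* (407 counts in FRβ KO and 652 in WT), while *S100a9*, *Ly6g*, *Mpo* and *Elane* had at most 8 counts.

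Cells make cholesterol from acetyl-CoA through the mevalonate pathway, and take it up in lipoproteins. When sterols run low in the endoplasmic reticulum, SCAP carries the membrane-bound SREBP proteins to the Golgi, where they are cut and released to switch on the synthesis genes. INSIG proteins hold SCAP back when sterols are plentiful. Surplus sterol yields oxysterols, which activate the LXR receptors. LXR switches on the exporters ABCA1 and ABCG1 and, through MYLIP, the breakdown of lipoprotein receptors. Macrophages are known for this export, because they engulf cells and modified lipoproteins.

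The FRβ KO and WT libraries were close in the transcripts of cholesterol synthesis and differed in a few genes of export and uptake. *Apoe*, encoding the apolipoprotein that accepts exported cholesterol, was lower in FRβ KO, at a KO/WT ratio of 0.374. *Abca1* and *Mylip* were higher, at ratios of 1.43 and 1.39. These ratios compare counts after scaling of the library sizes by TMM, a method that sets the bulk of the genes to equal levels. Each has an exact (Clopper-Pearson) 95% interval from its 2 counts, which covers counting error only.

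A gene was called higher when all of its interval was more than 25% above equality, and lower when all of it was more than 20% below. Of the 29 genes, 2 were called higher, *Abca1* and *Mylip*, and 1 was called lower, *Apoe*. Among the 14489 genes the same rule called 1.98% higher and 2.57% lower. Intervals above 1 were found for 6 of the 29 genes and intervals below 1 for 3, against 14.7% and 16.8% of all genes. For 20 of them the interval held 1, against 68.5% of all genes. Of the 29 genes, *Apoe* alone passed 2-fold with its entire interval, against 0.718% of all genes. With so few genes these counts are a description, and no share is read as particular to them.

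**Figure D1:**
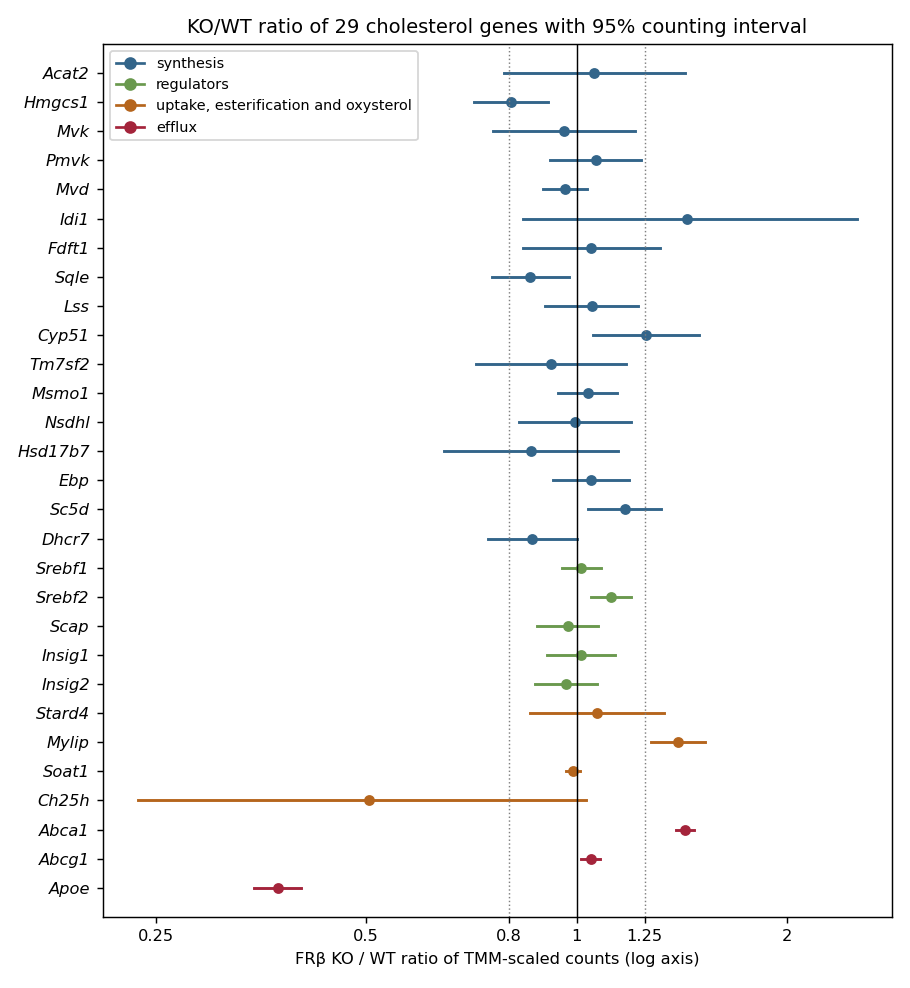
KO/WT ratio of TMM-scaled counts (log axis) for the 29 genes with at least 10 counts, in pathway order within 4 colored groups. Points are ratios from 1 library per genotype, bars are 95% counting intervals, and dotted lines mark 25% above and 20% below equality. *Apoe* lies far to the left at 0.374, *Abca1* and *Mylip* lie right of the upper dotted line, and the synthesis enzymes gather around 1.

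Promoter bases are shown for the 3 genes called and for 2 enzymes whose intervals lay off 1, one in each direction, to show the DNA before their start sites, where sterol-responsive factors are known to bind. Each line gives the 150 bases before the RefSeq start site on GRCm38.p6, 5′ to 3′ on the strand of the gene. Capitals mark the matches that are named below them, on either strand.

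*Abca1*, chr4:53159896-53160045, minus strand: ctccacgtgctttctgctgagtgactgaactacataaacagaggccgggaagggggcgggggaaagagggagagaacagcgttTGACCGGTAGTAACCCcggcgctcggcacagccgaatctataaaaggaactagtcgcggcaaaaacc
*Mylip*, chr13:45389592-45389741, plus strand: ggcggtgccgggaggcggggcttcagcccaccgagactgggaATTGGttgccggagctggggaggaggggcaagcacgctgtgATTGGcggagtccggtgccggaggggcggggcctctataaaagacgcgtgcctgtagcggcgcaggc
*Apoe*, chr7:19699189-19699338, minus strand: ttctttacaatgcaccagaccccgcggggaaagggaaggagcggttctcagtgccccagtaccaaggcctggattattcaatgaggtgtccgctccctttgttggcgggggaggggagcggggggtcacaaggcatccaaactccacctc
*Sc5d*, chr9:42264301-42264450, minus strand: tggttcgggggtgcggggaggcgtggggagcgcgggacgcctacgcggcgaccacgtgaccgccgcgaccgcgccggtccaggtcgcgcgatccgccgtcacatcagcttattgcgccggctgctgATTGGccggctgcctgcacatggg
*Hmgcs1*, chr13:119690201-119690350, plus strand: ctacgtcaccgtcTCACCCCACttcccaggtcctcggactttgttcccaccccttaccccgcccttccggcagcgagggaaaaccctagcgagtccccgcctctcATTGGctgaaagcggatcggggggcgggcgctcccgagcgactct

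In *Hmgcs1* the capitals mark the core of a sterol regulatory element, the SREBP site (TCACNCCAC), starting 137 bases before the start, and a CCAAT box read on the other strand. In *Mylip* and *Sc5d* they mark CCAAT boxes, which bind NF-Y, a factor known to act beside SREBP. In *Abca1* they mark a match to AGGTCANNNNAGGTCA, the repeat that LXR binds, on the other strand with 3 mismatches, starting 67 bases before the start. That allowance was set after the sequence was seen, and 8 of the 25 genes with a window have such a match, against 24.5% of all genes. None of these motifs was found in the 150 bases of *Apoe*.

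Of the 30 genes, 25 have RefSeq windows of 250 bases before to 50 bases after a start site, 35 windows in all. A CCAAT box, on either strand, lay in a window of 20 of the 25 genes, against 41.1% of 27025 genes with a window. Among the synthesis enzymes 14 of 15 had one. Of all windows, 21 of the 35 held a CCAAT box, against 37.4% of 32851. The sterol element core was found in 1 of the 25 genes, *Hmgcs1*, against 1.44% of all genes, and the repeat with at most 2 mismatches in 1, *Dhcr7*, against 3.47%. A match is a description of letters and not evidence of binding.

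The 3 efflux genes differed from each other. *Abca1* and *Abcg1* encode membrane pumps that hand cholesterol to apolipoprotein A-I and to larger lipoproteins, and apolipoprotein E, secreted by macrophages, carries the exported lipid. *Apoe* lies on chromosome 7 (19696109 to 19699188, mm10). Its 904 counts in FRβ KO and 2256 in WT made it 2.68-fold lower (ratio 0.374, 0.345 to 0.404). Among the 5846 genes whose counts reached 1000 in the sum of the libraries, 6 had a ratio as low, *Apoe* included. In such bulk RNA, fewer cells that express a gene and less of its RNA per cell cannot be told apart. Of the 7 macrophage markers, *Fcgr1* (0.786), *Lyz2* (0.843), *Itgam* (0.948) and *Mertk* (0.955) had ratios with intervals below 1, *Csf1r* (1.02) and *Cd68* (1.07) had intervals above 1, and the interval of *Adgre1* (0.999) held 1. The neutrophil marker sum was also lower in FRβ KO, at 20.96 CPM, against 35.8 CPM in WT. That sum came mostly from *S100a8* (407 counts in FRβ KO and 652 in WT) and does not measure the share of neutrophils. Counts were too few to compare for *S100a9* (6 in FRβ KO and 7 in WT), *Ly6g* (3 and 0), *Mpo* (3 and 8) and *Elane* (0 and 1). Set against *Csf1r* within each library, *Apoe* had 0.0300 counts per *Csf1r* count in FRβ KO and 0.0820 in WT. Per *Lyz2* count, *Apoe* had 0.00328 counts in FRβ KO and 0.00740 in WT, a smaller difference. The part of cell composition in this difference was not tested.

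*Abca1*, on chromosome 4 (53030787 to 53159895), had 12164 counts in FRβ KO and 7940 in WT (ratio 1.43, 1.39 to 1.47). Of those 5846 genes, 31 had a ratio as high, *Abca1* included, and the same rule called 0.855% of them higher and 1.51% lower. *Abcg1* had 8793 counts in FRβ KO and 7831 in WT (ratio 1.05, 1.02 to 1.08). The 2 pumps thus stood at 1.38 *Abca1* counts per *Abcg1* count in FRβ KO and 1.01 in WT, a comparison within each library that no scaling touches. For *Abca1* against *Apoe* these ratios were 13.5 in FRβ KO and 3.52 in WT.

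The sum over the 3 efflux genes depended on whether counts were divided by gene length. In CPM it was 1094 in FRβ KO and 967 in WT, with *Abca1* contributing most of the difference. With the same TMM scaling and division by exon length, it was 140.1 CPM per kb in FRβ KO and 155 in WT. In TPM (counts divided by exon length and scaled to a common total, without TMM) it was 453 in FRβ KO and 490 in WT. *Apoe* had 68.4 TPM in FRβ KO and 179 TPM in WT. *Abca1* had 189.9 TPM in FRβ KO and 129.7 TPM in WT, and *Abcg1* had 195 TPM in FRβ KO and 182 TPM in WT. Per length, *Apoe* was thus the lowest of the 3 in FRβ KO and stood between the pumps in WT.

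**Figure D2:**
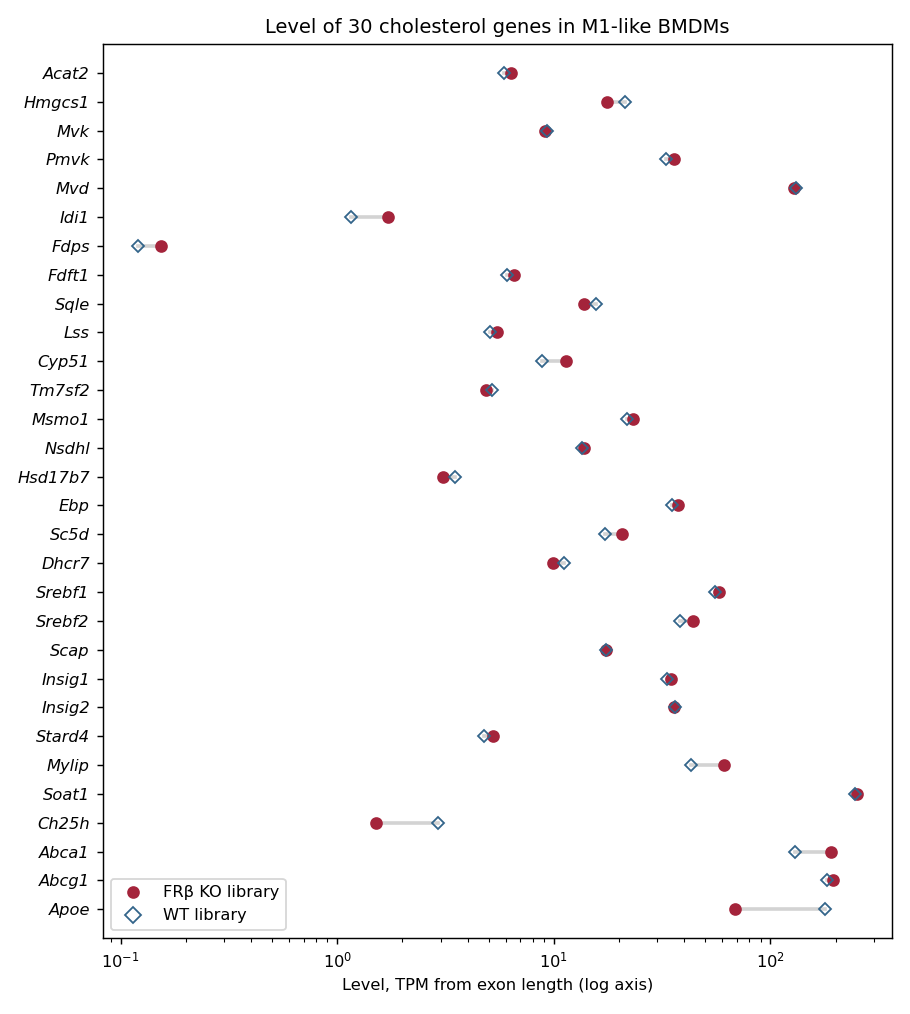
Level of the 30 genes in TPM (log axis), computed from the counts and the summed exon length of each gene, with filled circles for the FRβ KO library and open diamonds for the WT library. The circle and the diamond nearly coincide for most genes, while *Apoe* stands at 68.4 TPM in FRβ KO and 179 TPM in WT, and *Fdps* lies below 1 TPM in both.

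Uptake and storage genes showed 1 difference past the limit. *Mylip*, on chromosome 13 (45389742 to 45412022), encodes the ubiquitin ligase also called IDOL, which marks lipoprotein receptors for degradation. It had 1223 counts in FRβ KO and 818 in WT (ratio 1.39, 1.27 to 1.52), and 37 of the 5846 genes, *Mylip* included, had a ratio as high. With a 99% interval its lower bound was 1.24, and *Mylip* was no longer called. *Soat1*, encoding the enzyme that esterifies cholesterol for storage in lipid droplets, was the most abundant of the 30 genes, with 249.8 TPM in FRβ KO and 246 TPM in WT. Its 15114 counts in FRβ KO and 14248 in WT gave a ratio of 0.989 (0.967 to 1.01), the narrowest interval of the 30 genes.

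*Stard4*, which carries cholesterol between membranes, had 180 counts in FRβ KO and 157 in WT (ratio 1.07, 0.858 to 1.33). *Ch25h*, the interferon-induced enzyme that makes 25-hydroxycholesterol, had 13 counts in FRβ KO and 24 in WT. Its ratio of 0.505 had an interval from 0.236 to 1.03, so a difference was not detectable at this depth. The exons of *Ch25h* overlap *Gm26902*, a bidirectional promoter lncRNA on the other strand, over 159 bases. That gene had 7 counts in FRβ KO and 5 in WT, and the sources used here do not state whether the counting used strand.

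The synthesis enzymes showed no common shift. Of the 17 with at least 10 counts, 9 had a point ratio above 1 and 8 below 1, against 49% and 51% of all genes, and the median log2 KO/WT ratio was 0.05, against -0.01 over all 14489 genes. Their counts summed to 6826 in FRβ KO and 6434 in WT (ratio 0.989, 0.956 to 1.02). Set against *Soat1*, the sum stood at 0.452 in both libraries. None of them was called higher or lower. For 15 of the 17 the interval lay wholly within 1.5-fold of equality, against 59.8% of all genes, with *Idi1* and *Hsd17b7* as the exceptions. Intervals narrow as counts rise, and the 59.8% includes genes with as few as 10 counts. The 17 enzymes had 61 to 2916 counts over both libraries. The shares are thus not matched for depth and do not show that the enzymes were unusually stable.

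The first part of the pathway builds farnesyl diphosphate. *Acat2*, which joins acetyl-CoA units, had 100 counts in FRβ KO and 88 in WT (ratio 1.06, 0.788 to 1.43). *Hmgcs1*, encoding HMG-CoA synthase of the cytosol, had 502 counts in FRβ KO and 581 in WT (ratio 0.806, 0.713 to 0.909), the lowest ratio among the enzymes. With 2 genes added that share stretches of 159 and 160 bases with it, the interval of the sum held 1 (ratio 0.931, 0.863 to 1.004). Those 2 genes held more counts than *Hmgcs1*, 855 in FRβ KO and 778 in WT, mostly from *Chordc1*. The sum therefore cannot show the ratio of *Hmgcs1* itself. The kinases that phosphorylate mevalonate followed with 151 counts in FRβ KO and 147 in WT for *Mvk* (ratio 0.958) and 379 counts in FRβ KO and 332 in WT for *Pmvk* (ratio 1.06), and both intervals held 1. *Mvd*, the decarboxylase that ends this stretch, was the most abundant enzyme per length, at 129 TPM in FRβ KO and 131 TPM in WT, with 1481 counts in FRβ KO and 1435 in WT (ratio 0.962, 0.894 to 1.04).

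*Idi1*, the isomerase that makes dimethylallyl diphosphate, had only 37 counts in FRβ KO and 24 in WT (ratio 1.44, 0.837 to 2.51). *Fdps*, farnesyl diphosphate synthase, had 4 counts in FRβ KO and 3 in WT, too few for a ratio. Its level of 0.154 TPM in FRβ KO and 0.121 TPM in WT lay far below that of the enzymes before and after it. Both genes have near-identical processed pseudogenes, 4 for *Fdps* and 2 for *Idi1*, and those of *Fdps* together had 6 counts in FRβ KO and 18 in WT. The sources used here do not state how reads that match several copies were treated.

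The committed part of the pathway starts with squalene. *Fdft1*, squalene synthase, had 171 counts in FRβ KO and 152 in WT (ratio 1.05, 0.838 to 1.31). Its exons overlap those of the cathepsin B gene *Ctsb*, which lies on the other strand and had 149259 counts in FRβ KO and 160491 in WT, over 774 bases, so its own count is uncertain without the strand setting. *Sqle*, squalene epoxidase, had 471 counts in FRβ KO and 512 in WT (ratio 0.858, 0.755 to 0.974). *Lss*, which closes the ring to lanosterol, had 364 counts in FRβ KO and 323 in WT (ratio 1.05, 0.902 to 1.22). Of these steps only *Sqle* had an interval off 1, on the lower side.

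From lanosterol onward the methyl groups and double bonds of the ring are trimmed. *Cyp51*, the lanosterol 14-demethylase, had 311 counts in FRβ KO and 231 in WT (ratio 1.26, 1.06 to 1.49), and *Sc5d*, which adds a double bond near the end, had 619 counts in FRβ KO and 493 in WT (ratio 1.17, 1.04 to 1.32). These were the 2 enzymes of 17 with an interval above 1, against 14.7% of all genes. The exons of *Cyp51* overlap those of *Akap9*, on the other strand, over 166 bases. *Akap9* had 1621 counts in FRβ KO and 1492 in WT, so the count of *Cyp51* is uncertain without the strand setting. *Msmo1*, the methyl sterol oxidase, had 877 counts in FRβ KO and 789 in WT (ratio 1.04, 0.940 to 1.14), and *Nsdhl*, the decarboxylating dehydrogenase of that complex, 242 counts in FRβ KO and 227 in WT (ratio 0.994). *Msmo1* shares short stretches with 56 genes, which together had 53149 counts in FRβ KO and 49490 in WT. A sum with those genes therefore cannot show the ratio of *Msmo1* itself. *Ebp*, the sterol isomerase, had 537 counts in FRβ KO and 478 in WT (ratio 1.05, 0.924 to 1.19).

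The reductases had point ratios below 1, with intervals that held 1. *Tm7sf2*, a sterol 14-reductase, had 132 counts in FRβ KO and 134 in WT (ratio 0.918, 0.717 to 1.18). *Hsd17b7*, the 3-keto reductase, had 97 counts in FRβ KO and 105 in WT (ratio 0.861, 0.647 to 1.15). *Dhcr7*, which completes cholesterol by removing a last double bond, had 355 counts in FRβ KO and 383 in WT (ratio 0.864, 0.746 to 1.001). With 23 genes added that share short stretches with it, the interval of the sum lay below 1 (ratio 0.940, 0.895 to 0.988). Those 23 genes held most of the sum, with 2869 counts in FRβ KO and 2813 in WT. The sum therefore cannot show the ratio of *Dhcr7* itself. *Folr2* also lies on chromosome 7, 42.0 Mb from *Dhcr7* and 82.1 Mb from *Apoe*.

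Of the 5 control genes 1 had an interval above 1 and 0 below 1, against 14.7% and 16.8% of all genes. The gene above 1 was *Srebf2*, the gene of the SREBP that drives cholesterol synthesis. It had 1952 counts in FRβ KO and 1628 in WT (ratio 1.12, 1.05 to 1.19). *Srebf1*, whose products drive fatty acid genes and which LXR switches on, had 2009 counts in FRβ KO and 1846 in WT (ratio 1.01, 0.952 to 1.08). *Scap* had 798 counts in FRβ KO and 767 in WT (ratio 0.970, 0.877 to 1.07). The sterol sensors *Insig1* and *Insig2* had 661 and 770 counts in FRβ KO, against 607 and 745 in WT (ratios 1.02 and 0.964), and both intervals held 1. The counts measure transcripts and not the cleavage of SREBP, by which the pathway is chiefly controlled.

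Setting synthesis against efflux by their medians gave no separation. The median log2 ratio of the 17 enzymes minus that of the 3 efflux genes was -0.01, since *Abcg1*, with the middle value of the 3, was near equality and *Abca1* and *Apoe* lay on opposite sides. Against *Abca1* alone, the summed enzymes stood at 0.561 counts per *Abca1* count in FRβ KO and 0.810 in WT.

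**Figure D3:**
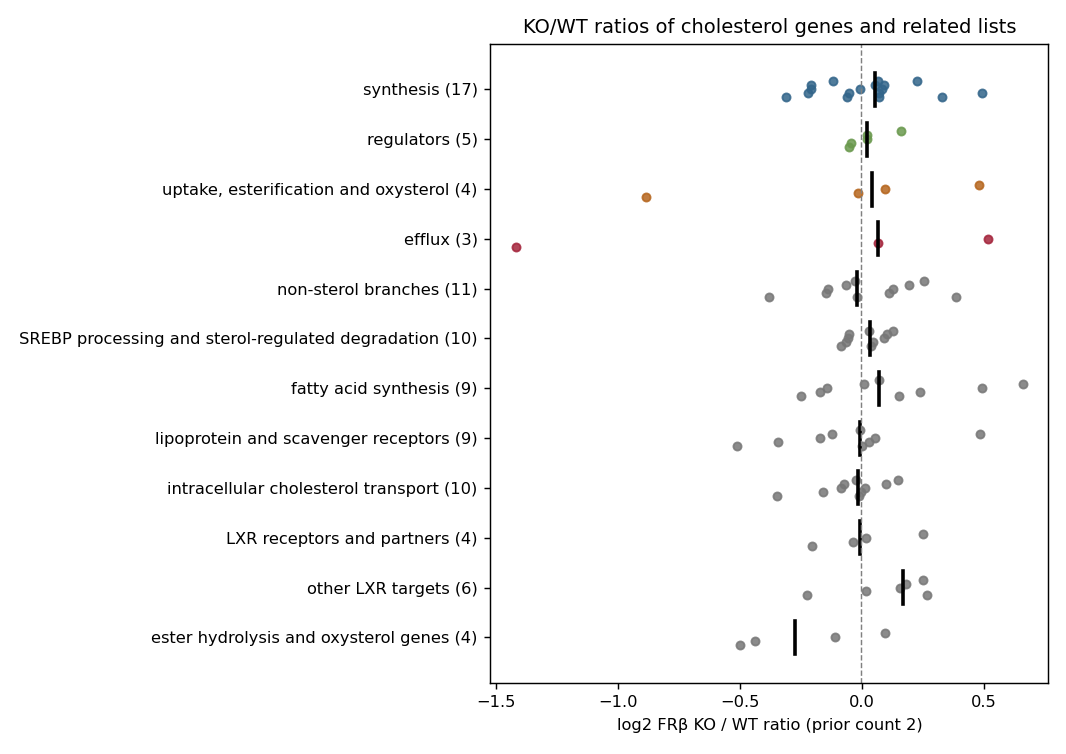
log2 KO/WT ratio (prior count of 2) of each gene with at least 10 counts, by list, with the number of genes in parentheses. Points are genes, black bars are list medians and the dashed line is the median of all 14489 genes, at -0.01. The efflux genes are spread from -1.42 to 0.51, while the synthesis enzymes lie between -0.31 and 0.49.

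Related genes outside the 30 were described by lists, and none of them was called higher or lower. The list of other LXR targets holds none of the 30 genes, so *Apoe* (ratio 0.374) and *Abca1* (ratio 1.43) are not in it. Among its 6 genes with at least 10 counts, 5 had a point ratio above 1, against 49% of all genes. Their median log2 ratio was 0.17, against -0.01 over all genes. The summed counts of the 6 genes, of which *Plin2* holds the most, went the other way, with 31153 in FRβ KO and 30842 in WT (ratio 0.942, 0.927 to 0.957). *Lpcat3*, which remodels phospholipids, had 902 counts in FRβ KO and 699 in WT (ratio 1.20, 1.09 to 1.33). *Pltp*, the phospholipid transfer protein, had 1336 counts in FRβ KO and 1101 in WT (ratio 1.13, 1.04 to 1.23), and *Smpdl3a*, a secreted phosphodiesterase, 7013 counts in FRβ KO and 5873 in WT (ratio 1.11, 1.08 to 1.15). *Plin2*, which coats lipid droplets, was lower, with 17999 counts in FRβ KO and 19607 in WT (ratio 0.856, 0.839 to 0.873). *Apoc1* and *Apoc2*, neighbors of *Apoe* in the genome, had 0 counts in both libraries, which allows up to 0.150 CPM in FRβ KO and 0.161 CPM in WT. Intervals above 1 were found for 3 of the 6 genes and below 1 for 1, against 14.7% and 16.8% of all genes. Those shares include genes with as few as 10 counts, while the 6 genes had 496 to 37606 counts over both libraries. Intervals narrow as counts rise. The shares are thus not matched for depth and cannot show whether the list stands out. The same limit holds for every list and set of neighbors compared with 14.7% and 16.8% here.

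Of 4 genes of LXR receptors and partners, 0 had an interval above 1 and 1 below 1, *Rxrb*, against 14.7% and 16.8% of all genes. *Nr1h3*, encoding LXRα and counted among the LXR targets as well, had 278 counts in FRβ KO and 218 in WT (ratio 1.19, 0.992 to 1.43), and *Nr1h2*, encoding LXRβ, 3702 counts in FRβ KO and 3539 in WT (ratio 0.975, 0.931 to 1.02). *Rxra*, a partner of both, was at 1.01, and *Rxrb* had 1120 counts in FRβ KO and 1205 in WT (ratio 0.867, 0.798 to 0.941). Per length, *Nr1h2* had 179 TPM in FRβ KO and 179 TPM in WT, and *Nr1h3* had 17.9 TPM in FRβ KO and 14.7 TPM in WT, so the LXRβ transcript was the more abundant in both libraries.

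Among 9 lipoprotein and scavenger receptor genes, 1 had an interval above 1 and 4 below 1, against 14.7% and 16.8% of all genes. *Lrp8*, encoding the ApoE receptor 2, had 417 counts in FRβ KO and 278 in WT (ratio 1.40, 1.20 to 1.63). *Vldlr*, encoding the VLDL receptor, had 128 counts in FRβ KO and 171 in WT (ratio 0.698, 0.551 to 0.883), and *Olr1*, a receptor of oxidized LDL, 768 counts in FRβ KO and 910 in WT (ratio 0.787, 0.714 to 0.867). The proteins of *Lrp8* and *Vldlr* are known targets of the MYLIP ligase, and their transcripts lay on opposite sides of equality. *Lrpap1*, a chaperone of such receptors, had 9550 counts in FRβ KO and 10022 in WT (ratio 0.888, 0.864 to 0.914). *Lrp1* and *Msr1*, receptors with high counts, were at ratios of 0.999 and 1.02, and *Cd36*, the fourth gene with an interval below 1, at 0.917 (0.902 to 0.932).

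Of 10 intracellular cholesterol transport genes, 1 had an interval above 1 and 3 below 1, against 14.7% and 16.8% of all genes. *Gramd1b*, which moves cholesterol from the plasma membrane to the endoplasmic reticulum, had 2581 counts in FRβ KO and 3063 in WT (ratio 0.786, 0.745 to 0.828). *Npc1* and *Npc2*, which pass cholesterol out of the lysosome, stood at 1.07 (1.04 to 1.10) and 0.896 (0.884 to 0.907), and *Lipa*, the lysosomal lipase, at 0.941 (0.922 to 0.961). These differences were small, and high counts made their intervals narrow. The shares of all genes are not matched for that depth.

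Fatty acid synthesis genes, which SREBP-1 and LXR share, gave 4 intervals above 1 and 1 below 1 among 9 genes, against 14.7% and 16.8% of all genes. *Scd2*, a stearoyl-CoA desaturase, had 9269 counts in FRβ KO and 7786 in WT (ratio 1.11, 1.08 to 1.14), *Acaca*, acetyl-CoA carboxylase, 590 counts in FRβ KO and 466 in WT (ratio 1.18, 1.04 to 1.34), and *Me1*, malic enzyme, 117 counts in FRβ KO and 77 in WT (ratio 1.42, 1.05 to 1.91). *Fads1*, a fatty acid desaturase, had 511 counts in FRβ KO and 567 in WT (ratio 0.840, 0.744 to 0.949). *Scd1*, the other gene with an interval above 1, had 52 counts in FRβ KO and 30 in WT (ratio 1.62, 1.01 to 2.62). *Elovl6* and *Fads2* had fewer than 10 counts over both libraries.

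The branches that use mevalonate for other products gave 3 intervals above 1 and 0 below 1 among 11 genes, against 14.7% and 16.8% of all genes. *Ggps1*, which makes the geranylgeranyl diphosphate used to anchor small GTPases, had 648 counts in FRβ KO and 506 in WT (ratio 1.19, 1.06 to 1.34), *Pggt1b*, a subunit of the enzyme that attaches it, 611 counts in FRβ KO and 499 in WT (ratio 1.14, 1.01 to 1.29), and *Icmt*, which methylates such proteins, 1544 counts in FRβ KO and 1335 in WT (ratio 1.08, 1.001 to 1.16). *Dhdds*, of the dolichol branch, stood at 1.09 (0.994 to 1.20). The 10 genes of SREBP processing and sterol-regulated degradation lay between 0.942 and 1.09. Of them 1 had an interval above 1 and 0 below 1, against 14.7% and 16.8% of all genes. The gene above 1 was *Ubxn4* (2527 counts in FRβ KO and 2194 in WT, ratio 1.07, 1.01 to 1.14). Of the 4 ester hydrolysis and oxysterol genes with at least 10 counts, *Nceh1*, a cholesterol ester hydrolase, had 4690 counts in FRβ KO and 4103 in WT (ratio 1.07, 1.02 to 1.11), *Soat2*, the other esterifying enzyme, 73 counts in FRβ KO and 97 in WT (ratio 0.702, 0.511 to 0.960), and *Cyp27a1*, the sterol 27-hydroxylase, 109 counts in FRβ KO and 110 in WT (ratio 0.924, 0.702 to 1.22).

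Genes around the 3 called genes were compared as well. Of 49 genes with at least 10 counts within 1 Mb of *Apoe*, 3 were called lower and 1 higher, the model gene *Gm44659*, against 2.57% and 1.98% of all genes. *Tomm40*, the nearest measured neighbor, had 850 counts in FRβ KO and 812 in WT (ratio 0.976, 0.885 to 1.08), and *Clptm1* 3570 counts in FRβ KO and 3184 in WT (ratio 1.05, 0.996 to 1.10). The genes called lower were *Gipr*, 530 kb away (105 counts in FRβ KO and 196 in WT, ratio 0.499), *Dmwd*, 613 kb away (151 counts in FRβ KO and 238 in WT, ratio 0.591), and *1700058P15Rik* (18 counts in FRβ KO and 43 in WT, ratio 0.390). Of 7 such genes around *Abca1* none was called, and of 8 around *Mylip* 1 was called lower, *Gmpr* (ratio 0.218). *Slc44a1*, 281 kb from *Abca1*, had an interval above 1 (2151 counts in FRβ KO and 1594 in WT, ratio 1.26, 1.18 to 1.34). Intervals lay above 1 for 5 neighbors of *Apoe*, 1 of *Abca1* and 3 of *Mylip*, against 14.7% of all genes. They lay below 1 for 9, 0 and 2, against 16.8%. The 5 measured genes nearest to *Apoe* had ratios between 0.885 and 1.18, against 0.374 for *Apoe*.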

How the data were processed

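Per the methods and labels, the authors' provider aligned trimmed 150 bp paired-end reads to mm10 (HISAT2), and the authors deposited raw counts of reads per gene. Counting program, annotation release, strand setting: not given in the sources used here. A gene name table named 54409 of the 54532 identifiers, and positions and exon lengths came from GENCODE M21 (GRCm38). Library sizes were scaled by TMM (edgeR 4.0.16, R 4.3.3), with an FRβ KO to WT size ratio of 1.07. Exact (Clopper-Pearson) 95% intervals of the KO/WT ratio were computed with scipy 1.17.1. Reads carried no molecular identifiers, so intervals and limits cover counting error at most. A single library per genotype leaves no replicate error, so no p-value is given. TPM used exon lengths and no TMM. log2 ratios used a prior count of 2.

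The 30 genes and the lists were chosen with earlier results of these data known. Every one of the 30 genes is named, and of each other list up to 4 genes with 50 or more counts in a library, ranked by the interval bound closer to equality. Further genes of those lists, neighbors and single genes behind small counts were named after their values were seen. For near-identical copies, annotated transcripts were searched with blastn 2.17.0 (95% identity or more over 150 bp or more). Alternatives were other scalings (total counts, upper quartile, DESeq2 1.42.0), count minimums of 1 and 50, prior counts of 0.125 and 5, a 99% interval, limits of 1.5-fold and 2-fold, the point ratio, and an edgeR test at assumed variation.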

Additional observations from a re-analysis of the deposited data

How the results depend on the processing

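*Apoe* stayed lower and *Abca1* and *Mylip* stayed higher under every scaling tried, with ratios of 0.374 to 0.383 for *Apoe*, 1.43 to 1.46 for *Abca1* and 1.39 to 1.43 for *Mylip*. With a 99% interval 1 of the 30 genes was called higher, *Abca1*, since the lower bound for *Mylip* was 1.24. A limit of 1.5-fold or of 2-fold called 0 higher, and *Apoe* passed both. By point ratio alone, 4 genes were more than 25% higher (*Abca1*, *Mylip*, *Idi1* and *Cyp51*) and 2 more than 20% lower (*Apoe* and *Ch25h*). The intervals of *Idi1* (0.837 to 2.51) and *Ch25h* (0.236 to 1.03) held 1. Shares of all genes were not computed for the 99% interval, the 1.5-fold limit, the point ratio or the edgeR test, so these counts are a description only. Cutoffs of p under 0.05 and 2-fold in the exact test of edgeR, with the coefficient of biological variation assumed to be 0.1, 0.2 or 0.4, called 0 genes higher. They called *Apoe* lower at 0.1 and 0.2, and 0 genes lower at 0.4. The highest ratio of the 29 genes was 1.44, so the 2-fold cutoff alone fixed the 0 called higher by that test, whatever variation was assumed. *Sqle* no longer had an interval off 1 at 99% (0.726 to 1.01), and *Soat1* stood at 1.01 with total counts, against 0.989 with TMM. The median log2 ratio of the synthesis enzymes ranged from 0.05 to 0.09 over the scalings, filters and prior counts. No paired analysis was possible because each genotype has 1 library, and for the same reason no library could be left out.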

Other observations

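*Fdps* had 7 counts over both libraries, while *Mvd*, an enzyme shortly before it in the pathway, had 2916. The processed pseudogenes of *Fdps* had 6 counts in FRβ KO and 18 in WT, most of them on *Gm3571* (5 counts in FRβ KO and 18 in WT). With these copies added, *Fdps* had 10 counts in FRβ KO and 21 in WT (ratio 0.444, 0.187 to 0.985). The exons of *Fdps* also overlap those of *Gm43738* on the same strand over 1124 bases, 26.7% of its exon length, and *Gm43738* had 2 counts in FRβ KO and 0 in WT. *Acat2* shares a 1477-base match at 99.8% identity with *Acat3*, which had 2 counts in FRβ KO and 1 in WT. It shares a 445-base match at 98.7% identity with *Tcp1*, which had 1903 counts in FRβ KO and 1680 in WT, far more than *Acat2* itself, and the sum of the 3 genes had a ratio of 1.06 (0.991 to 1.13). *Tm7sf2* overlaps *Vps51* on the same strand over 532 exon bases, and *Vps51* had 64 counts in FRβ KO and 52 in WT. The counts of these genes are uncertain, since the treatment of reads shared among copies or overlapping genes is not stated.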
